A study of Oryza sativa with 12 samples.

Results

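Cinnamyl alcohol dehydrogenases (CADs) are NADPH-dependent enzymes that reduce hydroxycinnamyl aldehydes to the matching alcohols, the last step in the synthesis of monolignols, from which lignin is polymerised in the cell wall. Lignin stiffens and waterproofs the walls of xylem vessels and fibres, and in rice the loss of CAD2 colours hulls and internodes gold while the loss of CAD7 softens the culm. The rice genes of this family considered here are CAD2, CAD3, CAD5, CAD6, CAD7, CAD8A, CAD8B, CAD8C, CAD8D and CAD9. The list was drawn up with earlier results of these data known. Its genes were found as those whose symbol or synonym in the RefSeq gene table equals a listed name, together with every probe set that the array's annotation assigns to them. Of the 10 names 9 were matched, and 6 genes had a probe set, with 7 probe sets in all out of 57381 on the array. CAD5 had no match in the table, and CAD8B, CAD8D and CAD9 had no listed probe set, so these 4 genes were not analysed here.

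Leaves came from 2 upland rice cultivars, Azucena, a tropical japonica type, and Bala, an indica type, grown in flooded field plots of 1.2 m2. Control plots of each cultivar stayed flooded, and in drought plots water was withheld from day 59 after sowing until sampling on day 83, 24 days later. Each sample pooled the middle parts of young expanded leaves, 3 plants to a plot, in 1 bag for a field block, from 1 plot in control and 2 plots in drought, and its RNA was read on 1 Affymetrix rice array. The labels call the 3 samples of each of the 4 groups biological replicates, which makes 12 arrays in all. Values are MAS5 signals as deposited, and the number of arrays limits their precision.

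The median signal of an array lay between 9.6 and 12.4, and the highest of 33 negative control probe sets, taken as the background level, lay between 13.4 and 28.3. Spearman correlations across probe sets were 0.894 to 0.91 within groups and 0.828 to 0.883 between groups. All differences were taken between log2(signal + 16) values, so changes of dim genes come out too small. They were tested with limma over 33476 probe sets with Benjamini-Hochberg adjustment, and a gene was called at an adjusted p under 0.05. Of the 7 CAD probe sets, 4 passed the filter on dim probe sets (above the array median on at least 3 arrays), those of CAD2, CAD3, CAD6 and CAD8C. The other 3 probe sets, of CAD7, CAD8A and again CAD8C, were not tested. The leaf mesophyll genes CAB2R and RBCS had signals of at least 4131.4 on every array, while all 5 measured panicle and anther markers (MADS3, MADS58, TDR, CYP703A3 and RTS) lay under background on every array. RBCS1, also a mesophyll marker, lay under background on every array. Of the root markers, Lsi1 read 87.3 to 310.4, above background on every array, and Lsi2 lay under it.

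CAD2 (LOC4328552, chromosome 2, also named GH2), a CAD that acts in the lignification of rice hulls and internodes, fell in the leaves of both cultivars. Its signals in Azucena were 1530.9, 1421.9 and 1967.1 in control and 263.1, 428.9 and 463.5 under drought. In Bala they were 2089.4, 3578.4 and 1423.8 in control and 522.1, 523.8 and 491.1 under drought. In each cultivar every drought array lay below every control array. The difference was -2.07 (SE 0.26, 4.2-fold lower) in Azucena (limma, adjusted p = 1.2e-05) and -2.07 (SE 0.26, 4.2-fold lower) in Bala (adjusted p = 1e-05). Only 1.05% of all probe sets tested had a lower value in Azucena and 1.16% in Bala. The drought responses of the cultivars differed by 0.00072 on the log2 scale, with a 95% confidence interval from -0.77 to 0.77 (adjusted p = 1), so that a difference of up to 1.71-fold either way was not resolved. The control arrays of Azucena and Bala overlapped, and the order of group means was Bala control, Azucena control, Bala drought and Azucena drought.

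**Figure D1:**
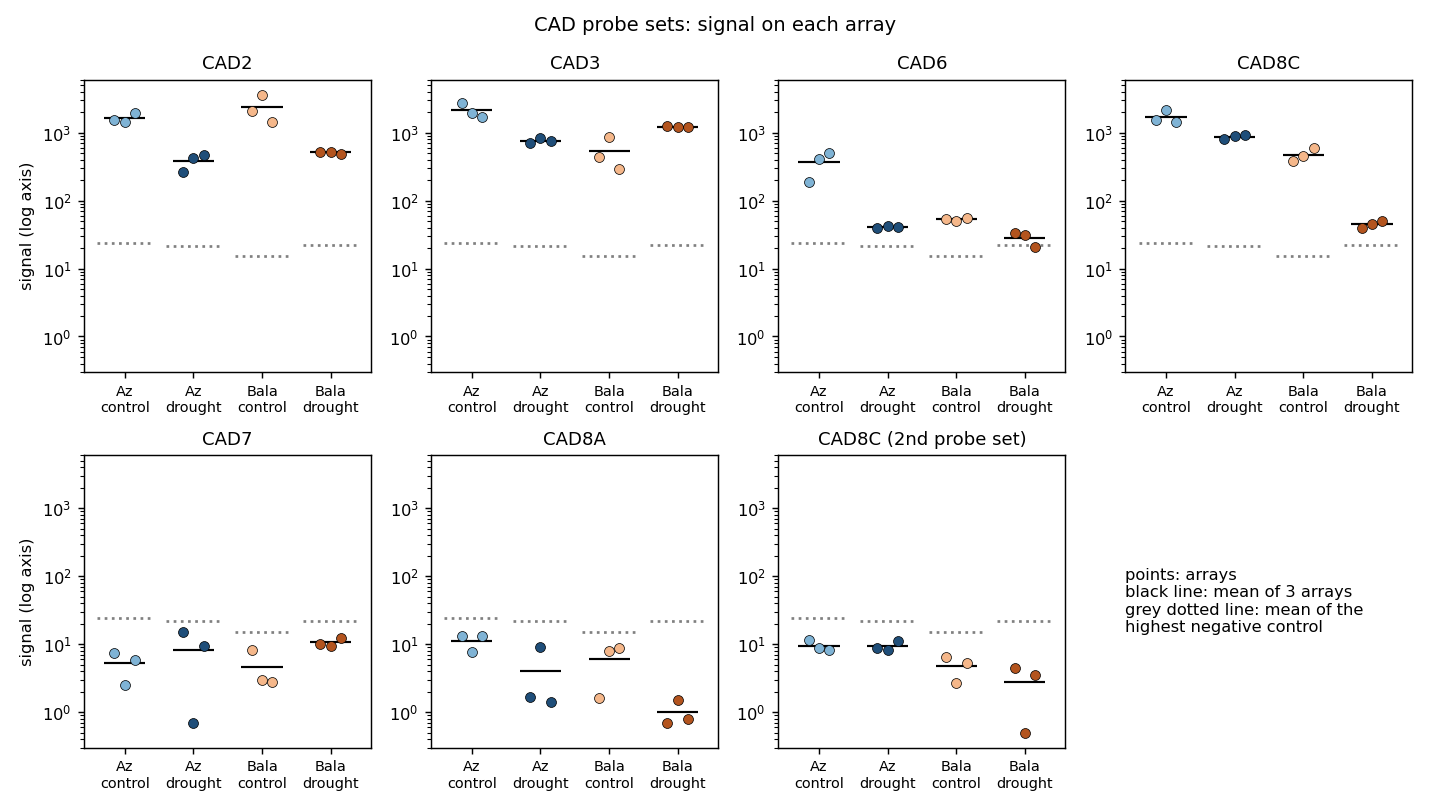
Signal of each CAD probe set (log axis) on every array, by group (Az, Azucena), with points for arrays, black lines for means of 3 arrays and grey dotted lines for the mean background level. CAD2 is lower under drought in both cultivars, CAD3 is lower in Azucena and higher in Bala, and CAD7, CAD8A and the second CAD8C probe set lie under background on all 12 arrays.

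CAD3 (LOC4348690, chromosome 10) moved in opposite directions in the cultivars. In Azucena its signal was 2697.4, 1944.7 and 1706.4 in control and 697, 831.7 and 762.8 under drought. In Bala it was 442.1, 866.7 and 291 in control and 1252.5, 1227.8 and 1201.3 under drought. Drought arrays thus lay wholly below control arrays in Azucena and wholly above them in Bala. The log2 difference was -1.43 (SE 0.26, 2.69-fold lower) in Azucena (limma, adjusted p = 0.00059) and 1.32 (SE 0.26, 2.49-fold higher) in Bala (adjusted p = 0.00098). The test of the difference between the responses, the interaction, gave 2.74 (SE 0.37, adjusted p = 0.00017), and 99.8% of the probe sets tested had a lower interaction value. Calls of a fall in Azucena together with a rise in Bala were made for 190 of the 33476 probe sets (0.568%).

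The reversal of CAD3 also showed between the cultivars. In flooded plots the mean signal was 2116 ± 517 in Azucena and 533 ± 298 in Bala (SD, n = 3 each), a log2 difference of -2.07 for Bala against Azucena (SE 0.26, limma, adjusted p = 1.2e-05). Under drought Bala was the brighter cultivar, at 1227 ± 25.6 against 764 ± 67.4 (SD, n = 3 each), and the arrays did not overlap. This difference of 0.68 was not called (SE 0.26, adjusted p = 0.078). It was called when only the 6 drought arrays were fitted (adjusted p = 0.0013), without Bala control 2 (0.0098) and without Bala control 3 (0.025). The 4 groups ran from Azucena control through Bala drought and Azucena drought to Bala control, with overlap only between Azucena drought and the brightest Bala control array.

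CAD6 (LOC4335223, chromosome 4) was bright in a single group, the flooded Azucena plants. There its signals were 188.7, 409.1 and 500, against 40, 42.9 and 40.6 in Azucena drought. In Bala they were 54.1, 50.4 and 56.3 in control and 33.2, 31 and 20.7 under drought, the last of these under the background level of its array. The Azucena fall was the largest of the 4 tested CAD genes in that cultivar, -2.64 (SE 0.25, 6.22-fold lower, limma, adjusted p = 6.8e-07). Without Azucena control 1, the dimmest control array, it was -3.03, and with 64 in place of 16 added to the signals it was -1.95. In Bala every drought array was below every control array as well, but the difference of -0.66 (SE 0.25) was not called (adjusted p = 0.057). The Bala difference was called after quantile normalization (-0.83, adjusted p = 0.028), after median centring (-0.73, adjusted p = 0.045), with 1 added to the signals (-0.92, adjusted p = 0.028), with only the 6 Bala arrays fitted (adjusted p = 0.019), and without Azucena control 1 (0.0058) or Azucena control 3 (0.036). The interaction was 1.97 (SE 0.36, adjusted p = 0.0018), that is, the fall was steeper in Azucena. In Bala the mean signal went from 53.6 to 28.3, near the mean background of 21.9 under drought. Little further fall could be seen there. Bala was lower than Azucena in control by a log2 difference of -2.35 (SE 0.25, adjusted p = 1.7e-06). Probe sequences were not used, so a lower level in Bala cannot be told apart from a poorer match of the probes to Bala transcripts. Under drought the cultivars differed by -0.38, with a 95% confidence interval from -0.92 to 0.16 (adjusted p = 0.33), although their arrays did not overlap.

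The CAD8 genes lie side by side on chromosome 9 in the order CAD8A, CAD8B, CAD8C and CAD8D, with 0 other genes of the RefSeq table between neighbours. CAD8C (LOC9269515) had 2 probe sets, which disagreed. The brighter probe set gave signals of 1508.4, 2148.8 and 1441.6 in Azucena control and 794.5, 877.3 and 919.4 in Azucena drought. In Bala it gave 381.8, 448 and 586.9 in control and 38.9, 45.6 and 50.2 under drought. No groups overlapped, and their order was Azucena control, Azucena drought, Bala control and Bala drought. The other probe set read between 0.5 and 11.5 and was under background on all 12 arrays. Probe sequences were not used here, so whether the bright probe set also reads a neighbouring CAD8 gene was not tested, and a weaker signal in Bala cannot be told apart from a poorer match of the probes to Bala transcripts.

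By its brighter probe set CAD8C fell in both cultivars, and more steeply in Bala. The log2 difference was -0.94 (SE 0.18, 1.92-fold lower) in Azucena (limma, adjusted p = 0.00075) and -2.99 (SE 0.18, 7.92-fold lower) in Bala (adjusted p = 1.9e-09). Lower values were found for 0.311% of all probe sets tested in Bala and for 6% in Azucena. The interaction was -2.04 (SE 0.25, adjusted p = 7.3e-05). With 64 added to the signals the Bala difference was -2.28 and the interaction -1.38, and both remained called. Bala was below Azucena by -1.81 in control (SE 0.18, 3.51-fold, adjusted p = 6e-07) and by -3.85 under drought (SE 0.18, 14.5-fold, adjusted p = 3.7e-11). The drought difference between cultivars exceeded in size that of 99.4% of probe sets tested.

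**Figure D2:**
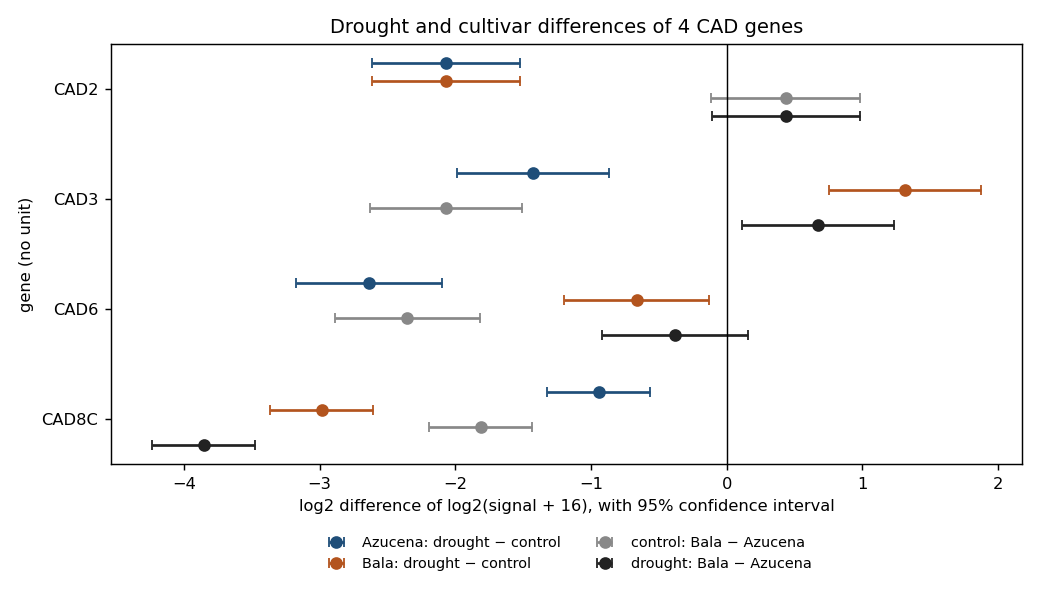
Log2 differences with 95% confidence intervals for the 4 tested CAD genes, drought against control in each cultivar and Bala against Azucena in each condition (n = 3 arrays per group). The drought intervals of CAD2 coincide, those of CAD3 lie on opposite sides of 0, and CAD8C is lower in Bala in both conditions.

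CAD7 and CAD8A gave no signal above background in these leaves. CAD7 (LOC4336968, chromosome 4, also named FC1), which acts in culm lignification, read between 0.7 and 14.9. CAD8A (LOC4346988) read between 0.7 and 13.2. Both were under the highest negative control on all 12 arrays, so their levels have only an upper bound and no change is given. With every probe set tested, none of the differences of CAD7 and CAD8A was called (lowest adjusted p = 0.096).

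Counted over the list, all 4 tested genes fell in Azucena, where 13.2% of all probe sets tested were called lower and 14.2% higher. In Bala 2 fell and 1 rose, against 10.9% and 20.6% of all probe sets. The interaction was called for 3 of the 4, in 2 towards higher values in Bala (7.27% of all probe sets) and in 1 towards lower values (4.06%). In control plots 3 were lower and none higher in Bala than in Azucena, against 18.7% lower and 9.94% higher of all, and under drought 1 was lower and none higher, against 12.1% and 10.8%. Drought and control arrays did not overlap for any of the 4 genes in either cultivar, which was also so for 41.8% of all probe sets tested in Azucena and 42.5% in Bala. Cultivars did not overlap for 3 of the 4 genes in control (38.6% of all) and for 4 under drought (39.1% of all). The median log2 difference of the 4 genes was -1.75 in Azucena and -1.37 in Bala, against 0.027 and 0.13 over all probe sets tested. A list of 4 genes is short, and it was drawn up with earlier results of these data known. These counts describe the genes measured, not the family at large. CAD1, described below, lies outside the list and was not called in either cultivar.

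**Figure D3:**
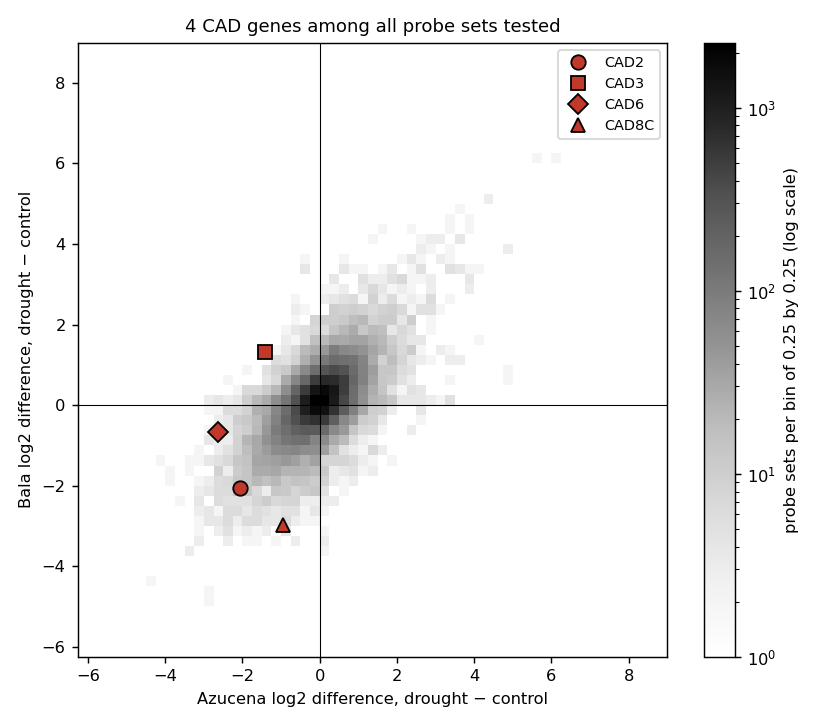
Drought response in Azucena (x axis) against that in Bala (y axis), both as log2 differences, for all 33476 probe sets tested (grey, darker for more probe sets per bin) and 4 CAD genes (red symbols). CAD2 lies where both responses are negative and of one size, CAD3 at the upper left, where few probe sets lie, and CAD6 and CAD8C on either side of CAD2.

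The 4 tested CAD genes did not share a single profile over the 12 arrays. Pearson correlations between pairs of the 4 genes ranged from 0.04 (CAD2 with CAD3) to 0.7 (CAD6 with CAD8C), as a description over arrays that fall into 4 groups. Among 2162 other genes with a name and a tested probe set, the nearest profiles to CAD2 were those of the potassium transporter gene HAK1 (r = 0.97) and the acyltransferase gene AT5 (r = 0.95). For CAD3 they were the actin gene AC2 (0.96) and OEP24, a chloroplast outer envelope protein gene (0.92). For CAD6 they were the allantoinase gene ALN (0.97) and the beta-tubulin gene TUB2 (0.97), and for CAD8C the transcription factor gene WRKY51 (0.96) and the actin gene AC7 (0.96). These values share arrays and group structure and carry no test.

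Phenylalanine ammonia-lyase (PAL) and 4-coumarate-CoA ligase (4CL) open the phenylpropanoid pathway, and of 7 such genes tested 2 fell and none rose in Azucena, with a list median of -0.24. The shares called over all probe sets were 13.2% lower and 14.2% higher in Azucena and 10.9% lower and 20.6% higher in Bala. With 7 genes the counts are too small for a close comparison with these shares. 4CL5 fell from 229 ± 68 to 113 ± 17 (SD, n = 3), a difference of -0.89 (limma, adjusted p = 0.0046). 4CL1 was called lower (adjusted p = 0.021), from 25.5 ± 2.48 (SD, n = 3, 2 of 3 arrays above background) to under background on all 3 drought arrays. Its fold in Azucena is not given. In Bala 1 rose and 1 fell, with a median of -0.042. 4CL2 rose in Bala at least 10.5-fold, from under background on all 3 control arrays to 165 ± 51 (SD, n = 3, adjusted p = 1.9e-08), and 4CL1 fell at least 1.43-fold. Neither PAL nor PAL06 was called in either cultivar, at differences of -0.24 and -0.073 in Azucena and 0.15 and -0.029 in Bala.

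In the monolignol branch itself, which comprises hydroxycinnamoyl transferases (HCT), O-methyltransferases (ROMT) and cinnamoyl-CoA reductase (CCR), 0 of 6 tested genes were called in Azucena, where 1 had an unadjusted limma p under 0.05, HCT2, with a difference of -0.58 (adjusted p = 0.087). In Bala 3 fell and 1 rose, with a median of -0.28. Over all probe sets 13.2% were called lower and 14.2% higher in Azucena, and 10.9% and 20.6% in Bala. HCT1 fell from 1816, 2463 and 1724.9 to 565, 534.3 and 509.7, a difference of -1.85 (SE 0.19, adjusted p = 1.3e-06). HCT2 fell from 512.6, 690 and 416 to 137.2, 112.9 and 162.6, a difference of -1.84 (SE 0.24, adjusted p = 1.7e-05). HCT1 and HCT2 had called interactions, -1.52 (adjusted p = 0.0016) and -1.26 (adjusted p = 0.025), where 4.06% of all probe sets were called lower. These 2 are of the same sign as that of CAD8C (-2.04) and of the opposite sign to those of CAD3 (2.74) and CAD6 (1.97). The interaction of HCT3, also tested, was 0.27 and not called (adjusted p = 0.55). HCT3 was under background on every Bala array, so it could show no fall there. ROMT-17 rose in Bala by 0.64 (adjusted p = 0.0065). CCR1 was called lower in Bala (adjusted p = 0.021), but only 1 of its 12 arrays was above background. SNL6, HCT4 and ROMT-9 had no listed probe set.

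CAD1 (LOC4348242, chromosome 10) carries a CAD name outside the list above. Its signal stayed between 562.4 and 905.1 on all 12 arrays. No difference was called, with 0.097 in Azucena (95% confidence interval -0.26 to 0.45, limma, adjusted p = 0.73) and 0.13 in Bala (-0.23 to 0.48, adjusted p = 0.63). Each interval lies above those of CAD2 in the same cultivar, although the difference between CAD1 and CAD2 was not itself tested.

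Laccases oxidise monolignols during lignin polymerisation, and 5 of the 9 laccase genes with a probe set were tested. In Azucena 2 rose, against 14.2% of all probe sets called higher. None was called lower (13.2% of all), but no tested laccase was above background on all 3 Azucena control arrays. Falls could therefore not be measured there, and LAC15 and LAC19 were under background on every Azucena array. LAC10 rose there from 19.1 ± 14.4, with 1 of 3 control arrays above background, to 58.2 ± 2.39 (SD, n = 3, adjusted p = 0.0095). LAC24 was called higher there (adjusted p = 0.033), with signals of 20.2, 471.7 and 28.3 on its 3 drought arrays, the first of them under background. Its fold rests mainly on the array at 471.7 and is not given. In Bala 2 rose and 2 fell, against 20.6% and 10.9% of all probe sets. LAC10 rose at least 9.07-fold (adjusted p = 1.2e-05) and LAC15 by 0.63 (adjusted p = 0.034). LAC7 fell at least 5.55-fold (adjusted p = 0.00043) and LAC19 at least 2.17-fold (adjusted p = 0.00038). In the flavonoid branch, which draws on the same precursors, chalcone isomerase (CHI) fell in Azucena by 0.76 on the log2 scale (adjusted p = 0.00052) and stood at -0.0068 in Bala. CHS1, chalcone synthase, was not called in Azucena (-0.062) and rose in Bala by 6.18 (adjusted p = 3.7e-13).

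**Figure D4:**
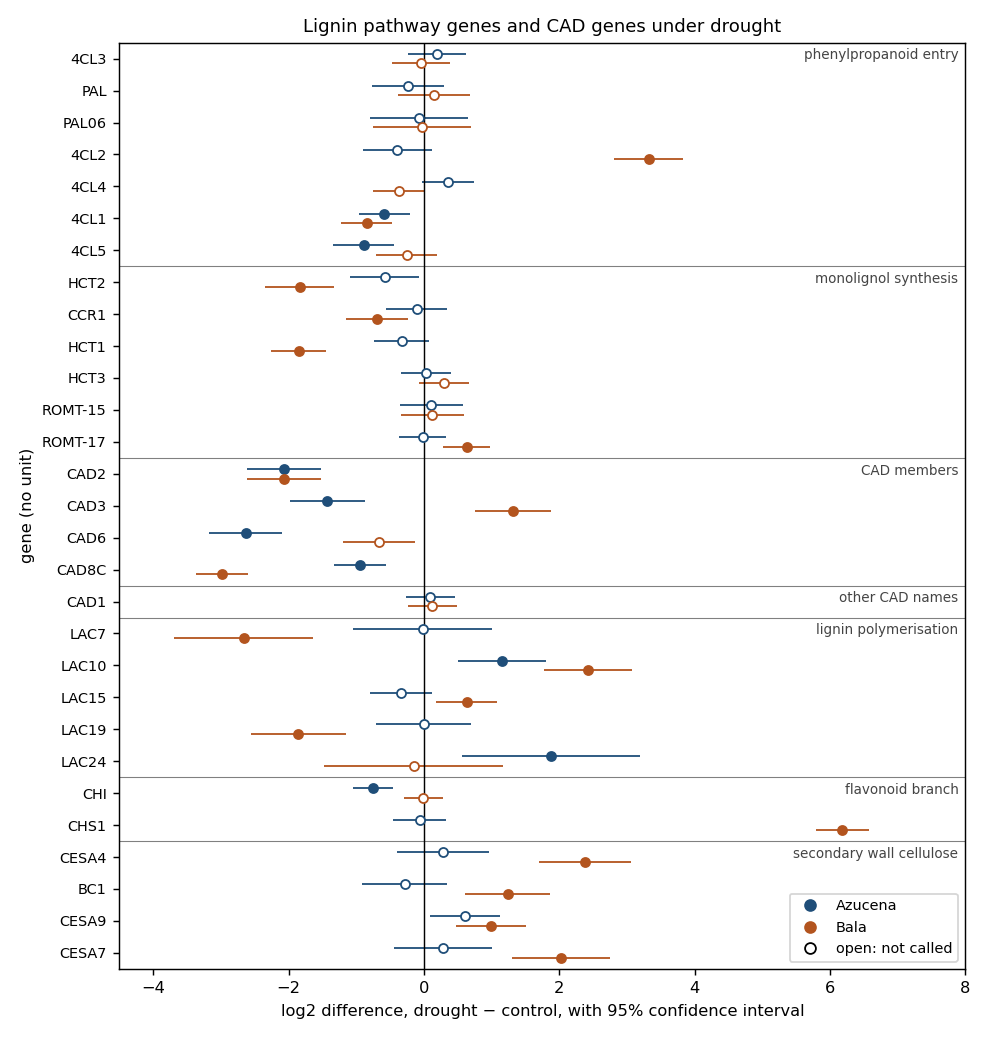
Drought response (log2 difference with 95% confidence interval) of the tested genes of each pathway list and of the 4 CAD genes in Azucena (blue) and Bala (orange), with filled points for called differences. In Azucena the 4 CAD genes are all called lower while the 6 monolignol genes above them are not called. In Bala 4CL1, HCT1, HCT2, CCR1, CAD2, CAD8C, LAC7 and LAC19 are called lower.

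Markers of vascular and secondary wall tissue, the tissue that lignifies, were set beside the CAD genes. Of 5 tested markers (CESA4, CESA7 and CESA9, subunits of the secondary wall cellulose synthase, BC1 and the phloem sucrose transporter gene SUT1) all 5 rose in Bala, where 20.6% of all probe sets were called higher, and none was called in Azucena, where 14.2% were called higher and 13.2% lower. In Azucena control, however, CESA4, CESA7, CESA9 and BC1 were each above background on only 1 of 3 arrays, so their changes there were poorly measured. CESA9 stood at 0.61 in Azucena (limma, adjusted p = 0.074). Over the 6 probe sets of that list the summed signal ran from 115.9 to 171.5 in Bala control, from 457.3 to 655.4 in Bala drought, from 250.5 to 434 in Azucena control and from 385.8 to 433.6 in Azucena drought. The phloem gene SUT1 was the largest part of that sum in every group. Its mean signal was 115 in Bala control, 327 in Bala drought, 241 in Azucena control and 308 in Azucena drought. CESA4 rose in Bala at least 6.84-fold (adjusted p = 2.4e-05), to 106 ± 32.8 (SD, n = 3). CESA7 was called higher (adjusted p = 0.00021), at 89, 49.9 and 169.6 under drought against 13.6, 11 and 7.9 in control, where 1 of 3 arrays was above background, so its fold is not given. SUT1 rose by 1.38 (adjusted p = 2.1e-05) and CESA9 at least 1.65-fold, while BC1 was called higher (adjusted p = 0.004). CESA9 and BC1 stayed near background, with CESA9 at 22.5 to 27.5 in Bala drought. BC1 was above background on 2 of 3 arrays there, so its fold is not given. Of 2 genes that carry the name BC1 the tested one is meant. Of the mesophyll markers CAB2R and RBCS fell in both cultivars, by 0.39 and 0.59 on the log2 scale in Azucena and by 0.56 and 0.48 in Bala, and the third, RBCS1, was under background throughout. The summed mesophyll signal was 16644.9 to 19176.7 in Azucena control and 12080.1 to 12911.8 in Azucena drought, and 14635.2 to 17139.9 in Bala control and 10592.1 to 12067.4 in Bala drought. Of 2 root markers Lsi2 was under background on every array and Lsi1 was above it, rising in Azucena by 0.77 (adjusted p = 0.019). In such samples of mixed leaf tissue fewer cells of a type and less RNA per cell cannot be told apart, and the part of these markers in the CAD differences was not tested.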

How the data were processed

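Deposited values are linear signal intensities per probe set and array, made by the authors with MAS5, per the submitters' processing notes. The sources used here state neither its version nor its scaling target. Groups and replicate numbers follow the labels, which call the replicates biological. P-values rest on the spread between these bags of leaves, with 1 estimate per probe set shared by all 4 groups. That spread differed between groups, with a CAD6 signal SD of 160 in Azucena control and 1.53 in Azucena drought. Calls within 1 cultivar can therefore change with arrays of the other.

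No rescaling was applied before log2(signal + 16) was taken. A model with 1 mean per group over 12 arrays was fitted to 33476 probe sets with limma 3.58.1 in R 4.3.3 (lmFit, eBayes with a mean-variance trend) and tested on simulated data. The 123 control probe sets were left out. Where 1 group lay under background on all arrays and the other above it on all arrays, the fold is a lower bound. It sets the mean log2 signal of the bright group against the mean, per array, of the higher of background and dim signal. Genes were named through the platform table and RefSeq (assembly ASM3414082v1, whose coordinates are not given because the array's build is not stated). That table names 1 gene for 22436 of 57381 probe sets and several for 95, and does not list 34850. Of several probe sets of a gene, the brightest stood for it. From each pathway list up to 4 called genes with the largest changes per cultivar were named, and the genes outside this rule (PAL, PAL06, CAD1 and those set beside markers) were added. PAL without a number was added to its list. Members and lists were chosen with earlier results of these data known. Tables were handled with pandas 2.3.3, and figures were drawn with matplotlib 3.10.9. The labels tie replicate numbers to no field block, so the samples were not paired. Deviations from group means of same-numbered arrays correlated at -0.11 to 0.22 over 18 pairs. The 2 pairs over 0.1 both joined Azucena drought with Bala drought (0.17 and 0.22). Low correlations cannot show that the numbers do not follow field blocks.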

Additional observations from a re-analysis of the deposited data

Results flagged for a closer look

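The drought response differed between the cultivars, by the interaction test in limma, for 3 of the 4 tested CAD genes. CAD3 fell in Azucena and rose in Bala, an interaction of 2.74 (adjusted p = 0.00017), with every drought array on the side of its cultivar's change. CAD6 fell more steeply in Azucena (1.97, adjusted p = 0.0018), but in Bala it began at a mean signal of only 53.6, so less fall could be seen there. CAD8C, by its brighter probe set, fell more steeply in Bala (-2.04, adjusted p = 7.3e-05). Its other probe set was under background on every array, and which of them reads the gene was not tested. Over the alternatives run, the adjusted p ranged from 2.9e-06 to 0.0021 for CAD3, from 1.5e-05 to 0.0099 for CAD6 and from 1.7e-05 to 0.00092 for CAD8C.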

How the results depend on the processing

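The 4 falls in Azucena, the 3 interactions, the 3 cultivar differences in control and the Bala changes of CAD2, CAD3 and CAD8C kept their direction and their call under every alternative run. These were 1 or 64 added to the signals, quantile normalization, median centring, no filter, a filter at the negative controls, no variance trend, the replicate number as a block, only the groups compared (not for the interaction), and leaving out each array. With the replicate block the counts of called CAD probe sets were 4 in Azucena, 3 in Bala, 3 for the interaction and 3 and 1 between cultivars in control and drought, as without it, although only 4 of 12 arrays correlated best with an array of their own number. Between cultivars under drought the count of 1 became 2 with no filter (adding the dim CAD8C probe set, under background throughout), 2 with only the groups compared (adding CAD3), and 1 to 2 on leaving out an array. The CAD2 interaction, near 0, turned to -0.036 with 64 added, -0.12 after quantile normalization and -0.064 after median centring, and ranged from -0.31 to 0.35 on leaving out an array. The CAD2 cultivar difference in control was called only without Bala control 3 (0.75, adjusted p = 0.032). The cause was not tested. The median change in Bala, 0.13 as deposited, was 0.019 after quantile normalization and 0.061 after median centring. The share of higher calls went from 65.4% to 50.6% in Bala, from 64.2% to 50.6% for the interaction and from 34.8% to 52.2% between cultivars in control under quantile normalization. CAD7, CAD8A and the second CAD8C probe set were limited by signal under background.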
